A study of Mus musculus with 22 samples.

Results

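Mitochondrial ribosomal proteins were followed across 22 mouse mammary cell lines measured on exon arrays. The family was taken as every gene whose probe set carried 1 gene symbol made of Mrpl or Mrps and digits alone, which gave 65 members of 14860 genes with a single symbol. Of these, 44 are proteins of the large subunit, 20 of the small subunit, and Mrps36, despite its name, is now placed in the oxoglutarate dehydrogenase complex and is not counted as a ribosomal subunit. Mrps30 carries a small-subunit name but sits in the large subunit. The family was chosen by measured values: the log2 levels of 2 members, Mrps26 and Mrpl11, which were lower in lines from engineered mice than in lines from spontaneous tumours. That contrast is therefore given as a description: no p-value is printed for a member in it, and nothing is inferred from the counts that the fit over all probe sets gave.

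Mitochondria keep their own ribosome, which translates the few proteins encoded in mitochondrial DNA, all of them subunits of the respiratory chain and ATP synthase. Its ribosomal RNAs come from mitochondrial DNA, but every one of its proteins is encoded in the nucleus, made in the cytosol and imported. Some of the proteins have a counterpart in bacterial ribosomes and form the decoding centre, the peptidyl transferase centre and the stalk that recruits translation factors, and others exist only in mitochondria, some of them in places where bacterial ribosomes have RNA.

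Lines were harvested while growing in culture, with 1 array per line, so lines and not repeat cultures are compared. Lines that share a tumour or a parental line are not independent, and their mean was used, which left 17 lineages. The 10 lineages from genetically engineered mice (GEM) comprised 5 with an MMTV-Myc transgene, namely 6DT1, cMyc and Myc83 with Myc alone and MVT1 and MVT2 with Myc and VEGF. The description of cMyc calls it similar to Myc83 cells, and MVT1 and MVT2 carry the same description. The 5 Myc lines were counted as separate lineages, which these descriptions neither state nor exclude. The other 5 were the MMTV-Wnt tumour ZD2508 (lines 2508 and 2855), 780 from a BRCA-/- mouse with Wap-cre, DB7 from a transplanted tumour of MMTV-PyVT Db, a mutant middle T antigen that does not couple to PI3K, M6 with its lung metastasis line M6C from the C3(1)Tag model, and p1522 from a p53-/-;MMTV-cre mouse. The MMTV and Wap promoters are active mainly in mammary epithelium, and C3(1) drives the T antigen in mammary and prostate epithelium. The labels give 780 as p53+/+ in one place and as p53+/- in another, and name no strain for the GEM lines. The 5 spontaneous lineages were 4T (67NR, 4T07 and 4T1, each carrying drug resistance), D2 (D2A1 and D20R, from a hyperplastic nodule line), EMT6, the sarcomatoid clone F311 and TSA. All of these but D2 are labelled as BALB/c or BALB/c-derived, so strain and origin cannot be told apart among the tumour lineages. The 2 immortalized lines were EPH4, a vector-carrying subclone of cells from a pregnant Balb/c gland, and NMUMG from an adult Namru gland.

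The deposited values read as log2, with array medians of 6.78 to 7.17 over the 16755 probe sets tested. Endothelial markers lay below every array median in all groups for 8 of 8 genes, as did 8 of 10 immune and 5 of 6 adipocyte markers. The mean of 12 epithelial markers had a median of 6.60 over GEM lineages, with a range of 6.14 to 9.95, of 6.50 over spontaneous lineages, with a lowest value of 6.26, and of 8.26 over immortalized lines. Some tumour lineages thus carried little epithelial signal, and 4 of the 12 markers in GEM lineages and 5 in spontaneous lineages averaged below every array median. The arrays of 2855, 2508 and F311 had the smallest spread of values, with SDs of 1.76, 1.88 and 1.88, against up to 2.12 on other arrays. A lower value can reflect fewer cells that carry the RNA or less RNA per cell, and these cannot be told apart.

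Sequence just upstream of the first exon is given for the pair named above and for Mrpl9, the next member in order of difference once the weakly detected Mrpl22 is set aside, and for Mrps14, the member that stood highest in GEM relative to spontaneous lineages. Each run holds 250 bases before and 50 after the RefSeq gene start in GRCm38.p6, on the plus strand in all 4 cases, at chr2:130563507-130563806 for Mrps26, chr19:4962056-4962355 for Mrpl11, chr3:94443086-94443385 for Mrpl9 and chr1:160194965-160195264 for Mrps14. Capitals mark matches, on either strand, to GCGCNTGCG (the NRF1 site), CCGGAAG (the ETS core bound by GABPA), AANATGGCG (the YY1 site), CACGTG (the E-box bound by Myc) and CCAAT.
Mrps26: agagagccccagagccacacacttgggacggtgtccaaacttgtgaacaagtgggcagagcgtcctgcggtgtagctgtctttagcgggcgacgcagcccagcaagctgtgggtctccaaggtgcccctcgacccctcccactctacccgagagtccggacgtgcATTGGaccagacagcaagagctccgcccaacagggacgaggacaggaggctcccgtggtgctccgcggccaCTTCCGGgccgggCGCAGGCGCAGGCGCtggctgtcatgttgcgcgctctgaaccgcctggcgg
Mrpl11: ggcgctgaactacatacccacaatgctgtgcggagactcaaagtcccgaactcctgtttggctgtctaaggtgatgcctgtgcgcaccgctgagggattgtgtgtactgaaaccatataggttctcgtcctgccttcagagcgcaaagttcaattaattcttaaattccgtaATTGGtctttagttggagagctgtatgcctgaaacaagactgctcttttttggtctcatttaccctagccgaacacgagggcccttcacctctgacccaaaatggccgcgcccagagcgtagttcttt
Mrpl9: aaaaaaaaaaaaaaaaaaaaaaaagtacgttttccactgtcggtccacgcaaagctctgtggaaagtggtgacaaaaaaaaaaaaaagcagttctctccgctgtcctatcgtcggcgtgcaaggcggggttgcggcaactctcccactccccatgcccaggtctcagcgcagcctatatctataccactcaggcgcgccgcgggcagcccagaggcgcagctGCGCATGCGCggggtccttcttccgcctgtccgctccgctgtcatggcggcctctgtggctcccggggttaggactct
Mrps14: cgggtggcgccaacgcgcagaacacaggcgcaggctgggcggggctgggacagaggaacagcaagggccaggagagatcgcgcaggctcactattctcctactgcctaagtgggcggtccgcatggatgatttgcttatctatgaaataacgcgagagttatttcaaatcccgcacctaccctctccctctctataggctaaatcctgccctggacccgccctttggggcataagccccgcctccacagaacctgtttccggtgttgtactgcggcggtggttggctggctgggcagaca
The Mrps26 promoter held 2 NRF1 matches that overlap each other, 1 ETS core and 1 CCAAT box. The Mrpl11 promoter held only 1 CCAAT box of these motifs, the Mrpl9 promoter 2 NRF1 matches that overlap on opposite strands, and the Mrps14 promoter none. The pair that separated GEM from spontaneous lineages had a CCAAT box in common and no other of these motifs. RefSeq promoters were at hand for 56 of the 65 members, 62 promoters in all, and 24.2% of these held an NRF1 match, against 6.31% of all 32851 promoters. The ETS core was in 27.4% of member promoters and 8.86% of all promoters, and the YY1 site in 12.9% of member promoters and 2.38% of all promoters. The E-box was in 9.68% of member promoters, in 4 genes, and in 7.15% of all promoters, and CCAAT was in 41.9% of member promoters and 37.4% of all promoters. The median GC content was 58.2% in member promoters and 52.7% in all promoters. A match is a run of letters and not a measured binding site.

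The family was well expressed in these lines. A total of 49 of the 65 members lay above the median of their own array in every line. The highest on average over the 17 lineages were Mrpl34, a large-subunit protein with a bacterial counterpart, at 10.44, Mrpl12, the stalk protein that contacts translation factors, at 10.16, and Mrpl3, which lies near the peptidyl transferase centre, at 10.05. Mrpl48 was lowest at 4.55, below its array median in all 22 lines. Mrpl21 at 5.65 and Mrpl22, which lines the exit tunnel, at 5.68 lay below the array median in 21 of 22 lines each, as did Mrps14, a small-subunit protein with a bacterial counterpart, at 6.46. Probe sets differ in binding, so these levels do not rank the RNAs against each other. The largest SDs over lineages were those of Mrpl22 (0.78), Mrpl20 (0.64), Mrpl21 (0.60) and Mrps36 (0.56).

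Mrps26, a small-subunit protein with no bacterial counterpart, was lower in every GEM lineage than in any spontaneous one. In GEM lineages its lowest value was 7.56 (MVT2), its median 7.74 and its highest 8.10 (M6), against 8.51 in 4T, 8.81 in D2, 8.74 in EMT6, 8.91 in F311 and 8.36 in TSA. The immortalized lines EPH4 and NMUMG, at 7.73 and 7.79, lay inside the GEM range and below every spontaneous lineage. The means were 7.76 ± 0.17 in GEM lineages (SD, n = 10) and 8.67 ± 0.23 in spontaneous lineages (SD, n = 5), a log2 difference of -0.90 (SE 0.11), or 1.87 times lower. Single lines did not overlap either, with the highest GEM line at 8.21 (M6) and the lowest spontaneous lines at 8.36 (67NR and TSA). Within GEM the Myc lineages averaged 7.78 and the other lineages 7.75.

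Mrpl11 lies at the base of the stalk where elongation factors dock. It read 7.86 at the lowest (780), 8.17 at the median and 8.72 at the highest (M6) in GEM lineages, against 8.88 in 4T, 8.91 in D2, 8.85 in EMT6, 9.03 in F311 and 8.86 in TSA. The spontaneous lineages sat within a narrow band and all GEM lineages below it. The difference was -0.68 (SE 0.13), from 8.22 ± 0.28 in GEM lineages and 8.91 ± 0.08 in spontaneous lineages (SD, n = 10 and 5). By line the groups touched, since M6 read 8.80 while the spontaneous lines 4T07 and D20R read 8.67 and 8.71. EPH4, at 8.58, lay inside the range of the GEM lineages, and NMUMG, at 8.81, lay between the highest GEM lineage and the lowest spontaneous one.

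**Figure D1:**
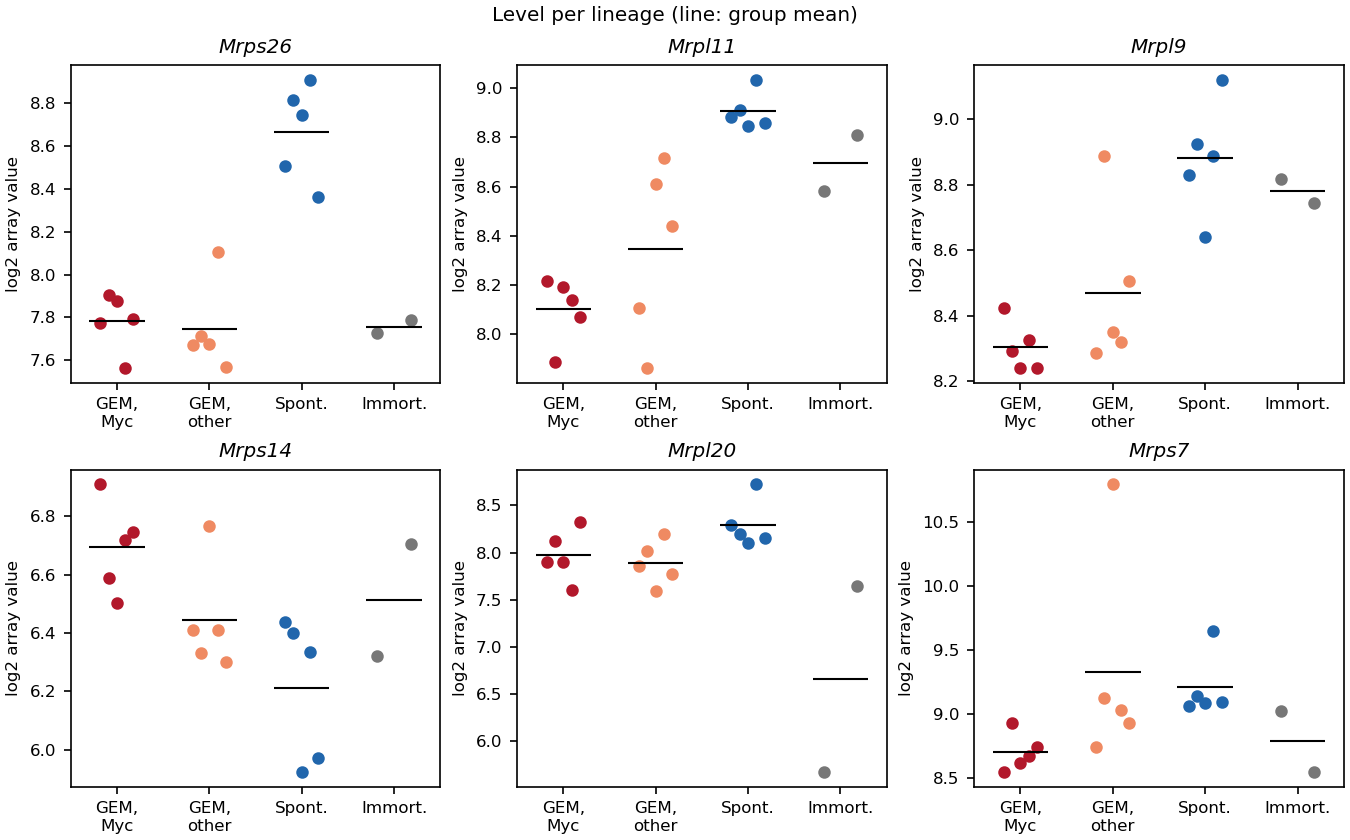
Log2 array value (y axis) of 6 members in each lineage, by group (x axis: GEM with Myc, other GEM, spontaneous, immortalized); points are lineages, lines are group means, and each panel has its own scale. Mrps26 and Mrpl11 separate GEM from spontaneous lineages, while Mrpl9 overlaps through 780, Mrps7 is set apart by DB7 (10.79) and Mrpl20 by EPH4 (5.66).

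No other member separated the groups. Lineage values did not overlap for 2 of 65 members, both lower in GEM, where 0.34% of all probe sets did not overlap in either direction and 0.161% were lower without overlap. In the limma fit over all probe sets, 1 member (Mrps26) lay past an adjusted p of 0.05, where 0.113% of all probe sets did in either direction and 0.0597% were lower. Past an unadjusted p of 0.05 lay 10 members, where 7.72% of all probe sets did. Of these, 9 were lower in GEM, where 4.14% of all probe sets were, and 1 was higher, where 3.58% were. Without Mrps26 and Mrpl11, no member lay past the adjusted threshold. Past the unadjusted one lay 8 of 63, with 7 lower and 1 higher in GEM. Mrps26 and Mrpl11 were picked for this difference, so these counts are no test of the choice.

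The groups overlapped for the other 63 members, but most of these lay somewhat lower in GEM. Of the 65 members, 53 (81.5%) were lower in GEM lineages, where 59.3% of all probe sets were, and 12 were higher, where 40.7% were. The median difference of the members was -0.18, against -0.04 over all probe sets, and without Mrps26 and Mrpl11 it was -0.18, with 51 of 63 lower. The direction was lower for 34 of 44 large-subunit proteins and 18 of 20 small-subunit proteins. By descent, 36 of 40 members with a bacterial homologue were lower (median -0.19), as were 16 of 24 mitochondrion-specific members (median -0.11). Leaving out F311 alone brought the count to 47 of 65 and the median to -0.12, and leaving out 2855, 2508 and F311 together gave 45 of 65 and -0.12. Leaving out any other single lineage gave 50 to 58 of 65.

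Among large-subunit proteins below zero, the next after Mrpl11 was Mrpl9, a protein of bacterial descent. It read 8.24, 8.32 and 8.89 at the lowest, median and highest in GEM lineages, against 8.83 in 4T, 8.92 in D2, 8.64 in EMT6, 8.89 in F311 and 9.12 in TSA. Only 780, at 8.89, reached into the spontaneous range. The difference was -0.49 (SE 0.11). Mrpl38 and Mrpl37, both specific to mitochondria, differed by -0.47 (SE 0.12) and -0.46 (SE 0.19), with means of 8.86 and 9.67 in GEM lineages against 9.32 and 10.13 in spontaneous lineages. For Mrpl38 the GEM range of 8.40 to 9.10 overlapped the spontaneous range of 9.03 to 9.52 through 780 and M6 against EMT6. Mrpl22 differed by -0.68 but with an SE of 0.38 and at a low level, with GEM lineages spread from 4.23 to 6.61 and spontaneous lineages from 5.29 to 6.69.

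The remaining 12 members were level or higher in GEM lineages. Mrps14 stood highest, at 6.30, 6.54 and 6.91 at the lowest, median and highest in GEM lineages, against 6.44 in 4T, 6.40 in D2, 5.92 in EMT6, 6.34 in F311 and 5.97 in TSA. Those ranges overlapped, and the difference was 0.35 (SE 0.13). Mrpl50, specific to mitochondria, differed by 0.24 (SE 0.20), and this rested on EMT6 at 7.84, since without EMT6 the difference was -0.01. Mrps25, Mrpl51, Mrpl32 and Mrpl39 followed with differences of 0.20, 0.15, 0.15 and 0.13, each about as large as its SE (0.19, 0.21, 0.15 and 0.13).

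**Figure D2:**
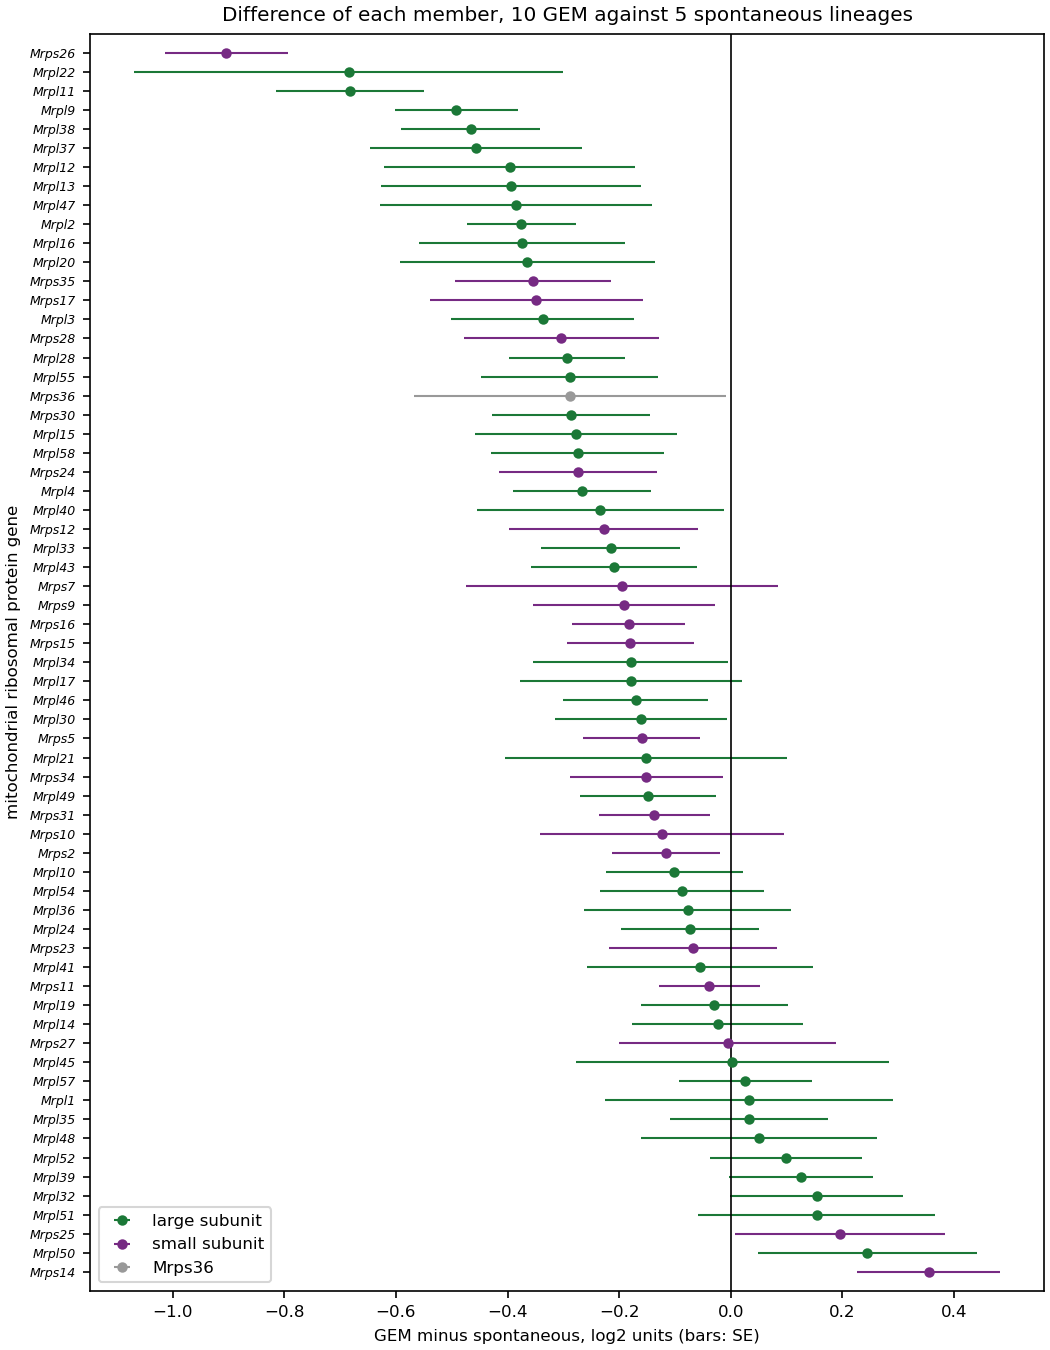
Difference of each of the 65 members, GEM minus spontaneous lineages in log2 units (x axis, bars are SE), members down the y axis from lowest to highest and coloured by subunit. Most points lie left of zero, with Mrps26 (-0.90) farthest and 12 members to the right.

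**Figure D3:**
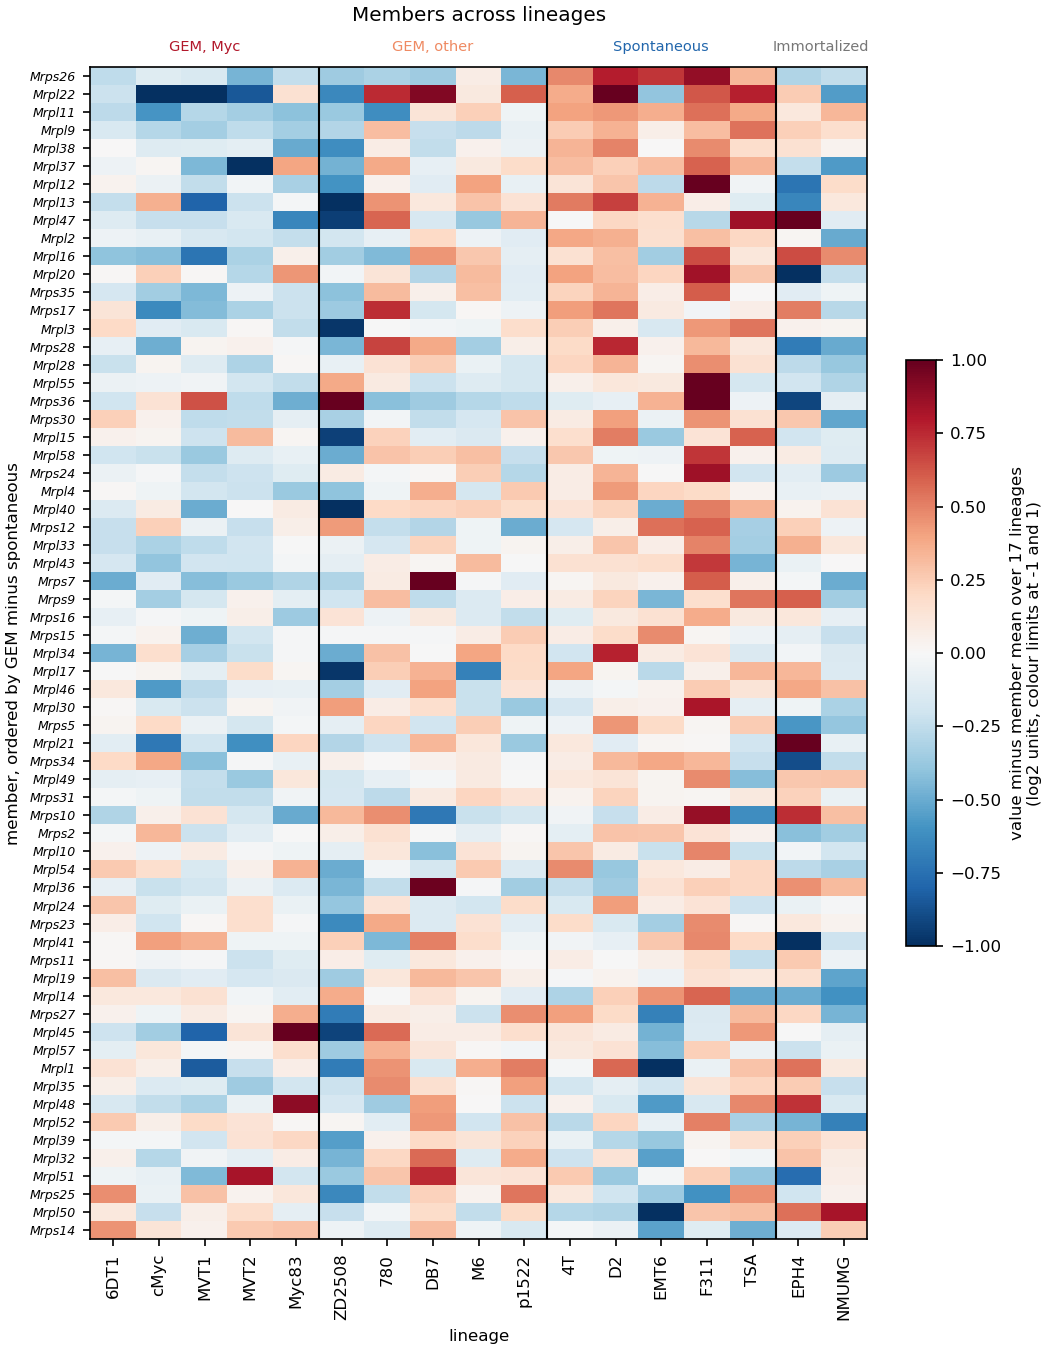
Value minus the member's mean over 17 lineages (colour, log2 units, limited at -1 and 1) for the 65 members (rows, in the order of the difference between GEM and spontaneous lineages) and 17 lineages (columns, by group). F311 is high in most rows, ZD2508 low in most, and single dark cells mark members set by 1 lineage, such as Mrps7 in DB7 and Mrpl21 in EPH4.

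A family score, the mean over 65 members of the value minus the member's own mean over lineages, placed the lineages on 1 scale and was not tested. It averaged -0.05 ± 0.13 in GEM lineages (SD, n = 10) and 0.13 ± 0.15 in spontaneous lineages (SD, n = 5), a difference of -0.18. It was -0.16 without Mrps26 and Mrpl11 and -0.10 without the arrays of 2855, 2508 and F311. The groups overlapped: GEM lineages ran from -0.29 in ZD2508 through a median of -0.03 to 0.11 in DB7, against 0.10 in 4T, 0.18 in D2, -0.05 in EMT6, 0.34 in F311 and 0.08 in TSA. Both extremes belonged to the lineages whose arrays had the smallest spread of values. ZD2508, whose lines grew in a medium with less serum plus insulin and epidermal growth factor, had 13 members above their own mean, and F311 had 57. The mean array SD was 2.007 in GEM lineages and 1.996 in spontaneous lineages, and the part of array spread or medium in the 2 extremes was not tested. EPH4 and NMUMG scored -0.01 and -0.11.

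**Figure D4:**
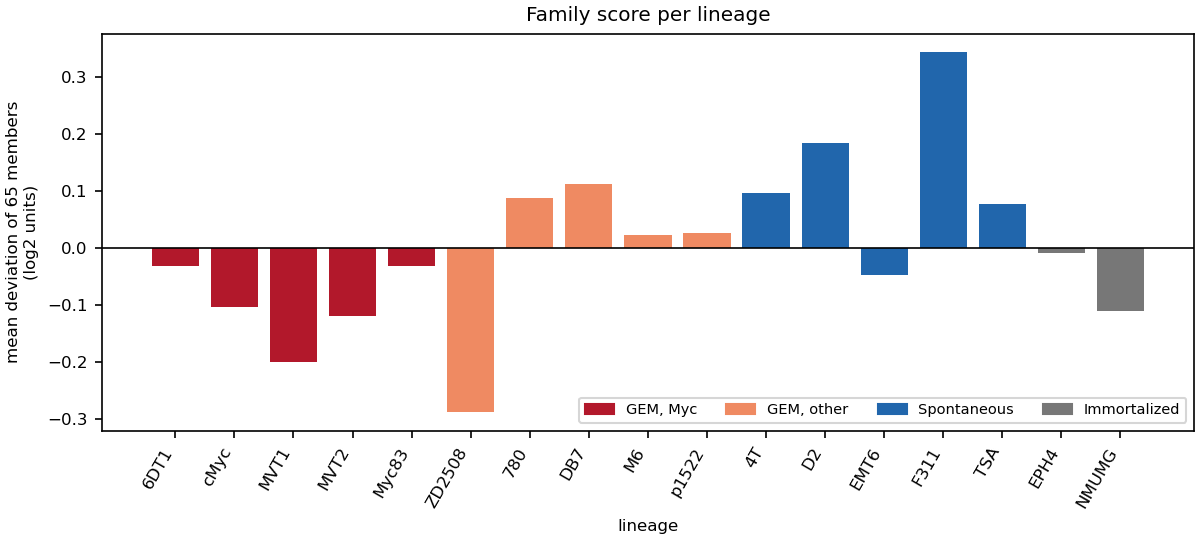
Family score in log2 units (y axis) for each lineage (x axis), coloured by group. All 5 Myc lineages are below zero, ZD2508 is lowest (-0.29) and F311 highest (0.34), and EMT6 (-0.05) is the only spontaneous lineage below zero.

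Related lines showed how far the family moves without a change of origin. D2A1 scored 0.34 and D20R 0.03, with a median member difference of 0.26, which is larger in size than the median difference between GEM and spontaneous lineages. The lines 2508 and 2855 scored -0.33 and -0.24, M6C and M6 0.00 and 0.04, and 4T07, 4T1 and 67NR 0.04, 0.10 and 0.15. Between related lines, Mrps26 differed by at most 0.33 (2508 over 2855) and Mrpl11 by at most -0.43 (4T07 minus 4T1). The largest difference of a member between related lines was -1.44, for Mrpl54 in 4T1 relative to 67NR.

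Members moved together loosely. Over 2080 pairs of members the median Pearson correlation across the 17 lineages was 0.215, and 1534 pairs were above zero. Mrps35 and Mrpl58, the peptidyl-tRNA hydrolase built into the large subunit, followed the mean of the other members most closely, with r of 0.863 and 0.845. Mrps26 and Mrpl11 had r of 0.572 and 0.550, and Mrps14 ran lowest at -0.242. The family score followed the scores of mitoribosome assembly factors (r = 0.868), cytosolic ribosomal proteins (r = 0.782) and respiratory chain and ATP synthase subunits (r = 0.762) more closely than that of mitochondrial translation factors (r = 0.442). The cytosolic score is a mean over 18 genes (median difference between GEM and spontaneous lineages -0.11). It includes Rps27l, which differed by -2.62, and the part of Rps27l in that r was not tested. All values of a lineage come from the same arrays, so these 17 points share array effects. The r of the score with array SD was 0.279.

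Tumour lineages were next set against the 2 immortalized lines, with the tumour mean taken as the average of the GEM and spontaneous means. This contrast played no part in choosing the family, but it shares the GEM and spontaneous values that did. The members split between both directions: 39 were higher and 26 lower in tumour lineages, where 54.4% of all probe sets were higher and 45.6% lower, with a median of 0.07 against 0.03 over all probe sets. The split depended on which immortalized line was used: without EPH4, 45 were higher and 20 lower (median 0.11), and without NMUMG, 34 were higher and 31 lower (median 0.01). Leaving out EMT6, TSA or both lines of ZD2508 gave medians of 0.11 each. No member passed an adjusted p of 0.05 in limma, where 0.298% of all probe sets did, and 14 passed an unadjusted p under 0.05, or 21.5% of members, where 11.9% of all probe sets did. Of these, 11 were higher in tumours, where 5.94% of all probe sets were, and 3 were lower, where 5.96% were. Mrps26, picked for being higher in spontaneous than in GEM lineages, was 1 of the 11. Without Mrps26 and Mrpl11, 13 of 63 members passed the unadjusted threshold, 10 of them higher. Lineage values did not overlap for 5 members, where 3.28% of all probe sets did not. These were Mrps2, Mrps5, Mrps28 and Mrpl52, higher in tumours, where 1.88% of all probe sets were higher without overlap, and Mrpl50, lower in tumours, where 1.4% were. With only 2 immortalized lines, the error of these differences is large.

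Mrps5 and Mrps2, small-subunit proteins with bacterial counterparts, differed in a way that both immortalized lines shared. Mrps5 read 8.29, 8.50 and 8.92 at the lowest, median and highest in tumour lineages, against 7.90 in EPH4 and 8.10 in NMUMG, a difference of 0.58 (SE 0.15, adjusted p = 0.0965 in limma). Mrps2 read 9.40, 9.63 and 9.95 in tumour lineages, against 9.20 in EPH4 and 9.27 in NMUMG, a difference of 0.45 (SE 0.13, adjusted p = 0.161 in limma). Neither pair of groups overlapped, and neither difference passed the threshold. Mrps28, at 0.73 (SE 0.24), and Mrpl52, at 0.63 (SE 0.19), followed the same pattern, with adjusted p of 0.21 and 0.171 in limma. Mrpl50 read 7.84, 9.08 and 9.40 in tumour lineages, against 9.66 in EPH4 and 9.93 in NMUMG, a difference of -0.82 (SE 0.27, adjusted p = 0.212 in limma).

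In some other members the difference was smaller in size or reversed without EPH4, and 4 of these are given first. Mrpl20, a large-subunit protein whose bacterial counterpart acts early in subunit assembly, read 7.60, 8.10 and 8.73 at the lowest, median and highest in tumour lineages, against 5.66 in EPH4 and 7.64 in NMUMG. NMUMG lay inside the tumour range and EPH4 far below it, and the difference of 1.46 (SE 0.32, adjusted p = 0.0593 in limma) was 0.47 without EPH4. Mrpl41, specific to mitochondria, read 7.18, 7.81 and 8.13 in tumour lineages, against 5.88 in EPH4 and 7.42 in NMUMG, a difference of 1.12 (SE 0.28, adjusted p = 0.0965 in limma) that was 0.35 without EPH4. Mrpl21 ran the other way, at 4.93, 5.53 and 5.98 in tumour lineages, against 7.73 in EPH4 and 5.57 in NMUMG, and its difference of -1.11 was -0.04 without EPH4. Mrps34 differed by 0.67, and by 0.35 without EPH4. With EPH4 as the only immortalized line, assumed to vary like the other lineages, these 4 members passed the adjusted threshold in limma (adjusted p of 0.000113 for Mrpl20, 0.000811 for Mrpl21, 0.00151 for Mrpl41 and 0.0397 for Mrps34), in a fit that called 413 of all probe sets, against 50 with both lines. With both lines, Mrpl14, Mrpl16, Mrps10, Mrpl47 and Mrpl36 differed by 0.63, -0.57, -0.57, -0.50 and -0.43 and did not pass. Mrpl47 read 9.84 in EPH4 and 8.61 in NMUMG, and its difference was 0.11 without EPH4. Mrps10 was also higher in EPH4, at 8.42, than in NMUMG, at 7.99.

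The Myc lineages were set against the other GEM lineages, since Myc is known as an activator of ribosome and mitochondrial genes. More members were lower than higher with the transgene: 44 of 65 were lower in Myc lineages, where 41.9% of all probe sets were, and 21 were higher, where 58.1% were, with a median of -0.09 against 0.03 over all probe sets. No member passed an adjusted p of 0.05 in limma, where 0.0119% of all probe sets did, and 1, Mrpl22, passed an unadjusted p under 0.05, where 5.41% of all probe sets did and 2.81% were lower. No member separated the groups, where 0.621% of all probe sets did. Of 40 members with a bacterial homologue 32 were lower (median -0.13), as were 11 of 24 mitochondrion-specific members (median 0.02). The family score averaged -0.10 ± 0.07 in Myc lineages and -0.01 ± 0.16 in the other GEM lineages (SD, n = 5 each), a difference of -0.09. The size depended on single lineages: without ZD2508 the score difference was -0.16 and 49 of 65 members were lower (median -0.13), without DB7 it was -0.06 and 44 were lower (median -0.05), and without 780 it was -0.06 and 39 were lower (median -0.06). The Myc probe set itself averaged 11.50 in Myc lineages and 10.61 in the other GEM lineages, a difference of 0.88 (SE 0.37, adjusted p = 0.90 in limma).

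Mrpl22 was the 1 member past the unadjusted threshold. It read 5.47 in 6DT1, 4.24 in cMyc, 4.23 in MVT1, 4.84 in MVT2 and 5.84 in Myc83, against 5.04 in ZD2508, 6.43 in 780, 6.61 in DB7, 5.78 in M6 and 6.28 in p1522. The groups overlapped at a level mostly below the array medians, and the difference was -1.10 (SE 0.37, adjusted p = 0.788 in limma). Mrps7, a small-subunit head protein with a bacterial counterpart, differed by -0.62 (SE 0.33, adjusted p = 0.999 in limma) with the Myc lineages at 8.55 to 8.92, against 10.79 in DB7 and 8.74 to 9.12 in the other 4 lineages without Myc. Mrpl16, Mrps17, Mrpl35 and Mrps35 differed by -0.33, -0.33, -0.31 and -0.28, and Mrps14, Mrpl54, Mrpl15, Mrpl17, Mrps25 and Mrps27 by 0.25, 0.25, 0.22, 0.20, 0.19 and 0.16, none of which passed the threshold. The differences of Mrpl17 and Mrps27 were -0.001 and -0.0035 without ZD2508.

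Genes that work beside the mitochondrial ribosome were read from lists, against 59.3% of all probe sets that were lower in GEM than in spontaneous lineages and 7.72% that lay past an unadjusted p of 0.05. Of 6 measured mitoribosome proteins that carry other symbols, all 6 were lower in GEM than in spontaneous lineages (median -0.51). Among them were Chchd1 at 8.05 in GEM and 8.68 in spontaneous lineages and Gadd45gip1 at 7.79 in GEM and 8.39 in spontaneous lineages. Another 1 of the 6 was lower without overlap of lineage values, where 0.161% of all probe sets were. Without overlap but higher in GEM were 1 of 18 aminoacyl-tRNA synthetases and 2 of 50 respiratory chain and ATP synthase subunits. Of all probe sets, 0.34% did not overlap in either direction. Of 19 mitoribosome assembly factors 16 were lower (median -0.16), including Tfb1m, which methylates the small ribosomal RNA, at 8.40 in GEM and 8.91 in spontaneous lineages. Also lower were 9 of 15 translation factors, 11 of 18 aminoacyl-tRNA synthetases and 10 of 15 import proteins, and 36 of 50 respiratory chain and ATP synthase subunits (median -0.09) and 14 of 18 cytosolic ribosomal proteins (median -0.11) were. Of 13 regulators of mitochondrial biogenesis, 5 were lower and 8 higher in GEM lineages (median 0.02). None of these genes passed an adjusted p of 0.05 in limma between GEM and spontaneous lineages, where 4 of the 6, 6 of the 19, 1 of the 15, 4 of the 18, 1 of the 15, 9 of the 50, 2 of the 18 and 1 of the 13, in the same order, passed an unadjusted p under 0.05. The shares of lower translation factors and synthetases were near that of all probe sets.

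In tumour against immortalized lines, 39 of 50 respiratory chain and ATP synthase subunits were higher in tumours (median 0.19), where 54.4% of all probe sets were. None passed an adjusted p of 0.05 in limma, and 10 passed an unadjusted p under 0.05, where 11.9% of all probe sets did. The import protein Dnajc19 was the only gene of these lists to pass, at 5.54 in tumour lineages and 6.66 in immortalized lines, a difference of -1.12 (SE 0.19, adjusted p = 0.0224 in limma) at a level below every array median. None of the listed genes passed between Myc and other GEM lineages. Past an unadjusted p under 0.05 in limma lay 1 assembly factor, 1 respiratory chain subunit, 1 import protein and 2 regulators of mitochondrial biogenesis. Of all probe sets, 5.41% did.

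Genes on either side of the pair were read to see whether they differed too. Next to Mrps26 on chromosome 2, Vps16, Pced1a and Ptpra differed between GEM and spontaneous lineages by -0.01, -0.01 and 0.22, and Oxt, Avp and 4930402H24Rik by -0.16, -0.25 and 0.23. Next to Mrpl11 on chromosome 19, Slc29a2, a nucleoside transporter, averaged 7.82 in GEM and 8.34 in spontaneous lineages, a difference of -0.53 (SE 0.16), and the other 5 neighbours differed by -0.11 to 0.10. The lineage ranges overlapped for all 12 neighbours.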

How the data were processed

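RNA of 22 cell lines was measured on mouse exon arrays, 1 array per line, with GCOS and mm9 named per the submitters' processing notes. The authors deposited 1 table of gene-level values on what reads as a log2 scale (2.74 to 13.9); their background correction and normalization are not stated there, and scanner files were not used. Tests covered the 16755 of 23332 entries whose identifiers fall in the annotated range. A further 3 entries carry a family symbol together with another symbol and were not taken as members. All 65 members matched a RefSeq gene. For the 1 gene with 2 entries (Mrpl48) the entry with the higher mean was kept.

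Related lines were averaged, giving 17 lineages. limma 3.58.1 (lmFit, eBayes; R 4.3.3) was fitted across all entries, with GEM, spontaneous and immortalized groups in 1 fit and Myc against other GEM in a fit of 10 lineages, and p-values were adjusted by Benjamini-Hochberg over all entries at 0.05. The tumour mean was the average of the GEM and spontaneous means, so 5 spontaneous lineages weighed as much as 10 GEM lineages. The code was tested on simulated data. P-values measure the spread between lineages. Members and lists were chosen with earlier results of these data known. Named members were Mrps26 and Mrpl11, any member past the threshold, the 6 largest differences in each direction per comparison, the 3 highest and 3 lowest means and the 4 largest SDs, and from other lists any gene past the threshold or the 2 largest differences; members that separated their groups or stood out in the likeness values were named after their values were seen. Other settings tried were median centring, quantile normalization, removal of the lowest entries by mean (62 members kept), every entry tested, each line as a replicate, mean of a gene's entries, an intensity trend, and leaving out each lineage or the 3 arrays with the smallest SD.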

Additional observations from a re-analysis of the deposited data

Results flagged for a closer look

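In 17 of 148 groups of 5 to 10 lineages tested, the highest or lowest lineage stood apart: its gap to the nearest lineage, as a share of the group's whole range, passed Dixon's critical value at 95%. The groups were those of the 36 named members and the family score, and many members were named for large differences or SDs. The Myc lineages and the other GEM lineages are also part of the GEM groups, and groups of 1 lineage share their arrays. Chance flags about 1 in 20 groups only where groups are independent and not picked by their values. The count of flags is therefore no measure of an excess. In ZD2508, the lowest value among GEM lineages was that of Mrpl15 (7.97, gap share 0.581) and Mrpl3 (9.08, 0.621), and among GEM lineages without Myc it was lowest for Mrpl3 (0.813), Mrpl39 (9.16, 0.757) and the family score (-0.29, 0.776), and highest for Mrps36 (9.30, 0.897). DB7 was highest for Mrps7 at 10.79, with a gap share of 0.745 among all GEM lineages and 0.813 among those without Myc, for Mrpl36 among GEM lineages (10.53, 0.694) and for Mrps14 among those without Myc (6.77, 0.763). Among Myc lineages, Myc83 was lowest for Mrpl38 (8.52, 0.735) and Mrpl47 (8.07, 0.801) and highest for Mrpl48 (5.44, 0.793), and cMyc was lowest for Mrps28 (8.50, 0.762). The line 780 was highest for Mrpl9 among GEM lineages (8.89, 0.592), M6 was highest for Mrps26 among GEM lineages without Myc (8.10, 0.731), and F311 was highest for Mrps7 among spontaneous lineages (9.64, 0.863).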

How the results depend on the processing

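No paired analysis was possible because no replicate number links lines of different groups. The number of members called between GEM and spontaneous lineages was 1 (of 19 calls over all probe sets), 3 after quantile normalization (of 19) and 4 with each line as a replicate (of 91). It ranged from 1 to 2 when single lineages were left out, with 2 without 780 (of 32), without DB7 (of 22) and without M6 (of 19). The members were picked on this contrast, so these counts say nothing of its stability. Between tumour and immortalized lineages it was 0 (of 50), and 1 after quantile normalization (of 120), with every table entry tested (of 412) and with each line as a replicate (of 103). It stayed at 0 when single tumour lineages were left out. Leaving out EPH4 or NMUMG leaves 1 immortalized line, and no count is given for those fits. Between Myc and other GEM lineages it stayed at 0, and the 3 family score differences kept their direction but not their size: that between GEM and spontaneous lineages was -0.10 without the 3 arrays with the smallest SD, against -0.18, that between tumour and immortalized lineages 0.05 without NMUMG and 0.15 without EPH4, against 0.10, and that between Myc and other GEM lineages ran from -0.16 without ZD2508 to -0.05 with each line as a replicate, against -0.09. Of the settings tried for named members, 877 kept direction and side of the threshold, 14 newly passed it and 8 reversed. Among the reversed ones, Mrpl50 between GEM and spontaneous lineages ranged from -0.0076 (without EMT6) to 0.3839 (without TSA) when single lineages were left out, and Mrpl47 between tumour and immortalized lineages from -1.122 (without NMUMG) to 0.1137 (without EPH4). Between Myc and other GEM lineages, Mrpl17 ranged from -0.001 (without ZD2508) to 0.3288, Mrps27 from -0.0035 (without ZD2508) to 0.2886 and Mrps26 from -0.0097 (without p1522) to 0.1241. Without the 3 arrays with the smallest SD, Mrpl17 was -0.001 and Mrps27 -0.0035, and with each line as a replicate Mrps26 was -0.0055. The cause was not tested. With 1 array per line and 2 immortalized lines, the number of arrays limits the precision.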

Other observations

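Among the lists read beside the family, the cytosolic ribosomal protein Rps27l, a paralogue of Rps27, averaged 7.81 in GEM lineages and 10.43 in spontaneous lineages, a difference of -2.62 (SE 0.64), while Rpl10a averaged 9.36 in GEM and 9.98 in spontaneous lineages. Among regulators of mitochondrial biogenesis, the coactivator gene Pprc1 averaged 8.78 in GEM lineages and 9.29 in spontaneous lineages, and its relative Ppargc1a 5.62 in GEM lineages and 4.80 in spontaneous lineages, below the array medians in both. Within GEM, Ppargc1a averaged 4.97 in Myc lineages and 6.27 in the other lineages. None of these genes passed an adjusted p of 0.05 in limma.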
